A study of Macaca mulatta with 51 samples.

Results

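The genes described here encode the subunits of the proteasome, together with DDI2 and NFE2L1, which control their transcription. They were chosen by symbol: every gene of the count table whose symbol is PSM, a letter from A to G and a number, plus these 2 genes. That gave 48 of 16033 genes, and 46 of the 48 had enough reads to be tested in each tissue. PSMA8, a testis form of an alpha subunit, and PSMB11, a thymus form of a beta subunit, did not: no library held more than 2 reads of PSMA8 or more than 6 of PSMB11. PSMC1 and PSMG2 were not analysed here. DDI2 was added because its level in muscle was known to be high at washout, so its washout values in muscle are given below as a description, with no test. The same holds for its difference between the tissues before treatment, which uses the muscle libraries that this rise is measured against.

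RNA was sequenced from punch biopsies of subcutaneous abdominal adipose tissue (AT) and gastrocnemius skeletal muscle (SM) of obese, non-diabetic rhesus macaques. All animals were 11 to 22 years old and had been made obese by a long-standing high-fat diet (diet-induced obesity, DIO). Each was sampled pre-treatment, after 12 weeks of once-daily subcutaneous injection of native human FGF21, a hormone that acts on metabolism, and after 16 weeks of washout. The dose was raised from 10 to 1000 ug/kg/day, with 1 animal held lower. Counts were at hand for 10 pre-treatment, 9 post-treatment and 8 washout libraries of AT, and for 6, 8 and 7 of SM, from 10 and 8 animals. No animals went untreated over the same weeks, so the treatment and the passing of time cannot be told apart. The authors reported that the animals lost weight under treatment and regained it during washout. These changes in weight cannot be told apart from treatment or time either.

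The proteasome is the barrel-shaped protease that breaks down proteins tagged with ubiquitin. Its 20S core is built of rings of alpha subunits (PSMA) and beta subunits (PSMB), of which PSMB5, PSMB6 and PSMB7 cut peptide bonds. Its 19S cap, made of ATPases (PSMC) and other subunits (PSMD), recognises the ubiquitin tag and unfolds the protein. In immune cells and under interferon, PSMB8, PSMB9 and PSMB10 take the places of PSMB5, PSMB6 and PSMB7 and form the immunoproteasome. NFE2L1 is a transcription factor made in the endoplasmic reticulum that switches on proteasome genes when proteasomes are short, and DDI2 is the protease that cuts NFE2L1 into its active form. In muscle the proteasome removes myofibrillar proteins, and its genes are known for their part in wasting.

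Depth was similar throughout, with 14455195 to 23940980 counted reads per library (median 18578869). Levels are given as CPM, the counts of a gene scaled to a common library size. The summed CPM of 8 muscle genes were 63.6 to 175 in AT and 41000 to 202000 in SM, and those of 4 adipocyte genes were 9440 to 32400 in AT and 36.7 to 1170 in SM, so that no defining marker went against the tissue label. Library identifiers fell into 3 number series (first, middle and last), which the labels do not explain. In SM, 3 of the 8 post-treatment libraries, those of the last series (animals 21189, 21866 and 24849), stood apart with 41000 to 74300 CPM of muscle genes, against 95800 to 189000 in the other 5. Values in SM that moved by over 1.5 times without these 3 are also given without them. In bulk tissue, fewer cells of a type and less RNA per cell cannot be told apart.

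Before treatment, the standard subunits of the proteasome were higher in SM than in AT, whereas the immunoproteasome genes were higher in AT. DDI2 aside, 35 of the 45 members tested were higher in SM and 4 in AT by edgeR's quasi-likelihood test. Genes are called differentially expressed (DE) where their log2 fold change was beyond 0.26 in size with an adjusted p under 0.05. Among all 12322 genes tested in both tissues, 36.6% were DE with higher levels in SM and 41.2% with higher levels in AT. The median log2 fold change of AT against SM was -1.17 for the members and 0.09 for all genes. Scaling by library size alone moved the median of all genes to 0.80 and that of the members, DDI2 aside, to -0.48, with 9 of these higher in AT and 26 in SM.

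All 30 standard subunits of the core and cap measured here were DE and higher in SM, with a median log2 fold change of -0.85 for the 14 of the 20S core and -1.55 for the 16 of the 19S cap. For part of the core this rested on the scaling between tissues. With library size alone, PSMA1, PSMA2, PSMA7, PSMB1, PSMB2, PSMB3 and PSMB4 were not DE (adjusted p from 0.12 to 0.937 by edgeR's test). Of 18 alternatives, PSMB3 was DE in 14 and PSMA6 in 15, counted in either direction. With library size alone, PSMA6 was not among the 26 members that were DE and higher in SM. PSMC6, an ATPase of the cap, differed most. On the scale shared by both tissues it lay between 116 and 208 CPM in the 6 SM libraries and between 28.7 and 38.4 CPM in the 10 AT libraries. The tissues did not overlap, and the log2 fold change of AT against SM was -2.17 ± 0.11 (SE, adjusted p = 2.67e-19). PSMB6, the caspase-like catalytic subunit, was at 254 to 422 CPM in SM and 61.1 to 113 CPM in AT (-1.96 ± 0.12, adjusted p = 2.12e-16). The log2 fold changes of the ubiquitin receptor PSMD4 and of the ATPase PSMC3 were -1.93 and -1.88. PSME4, which encodes the PA200 activator that caps the core in place of the 19S particle, was at 252 to 358 CPM in SM and 64.2 to 98.6 CPM in AT (-1.98 ± 0.16, adjusted p = 1e-13). No library of AT reached the lowest library of SM for PSMB6 or PSME4.

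NFE2L1 shared this direction. It was at 758 to 2390 CPM in SM with a median of 1560, and at 367 to 530 CPM in AT with a median of 490. All SM libraries lay above all AT libraries, although they spread over a wider range, and the log2 fold change was -1.78 ± 0.23 (adjusted p = 1.46e-08). DDI2 went the other way, with 2.8 to 6.49 CPM in AT and 2.5 to 4.40 in SM. Its tissues overlapped, and its log2 fold change was 0.57 ± 0.24. This difference is a description, as the SM libraries in it are part of the rise DDI2 was chosen for.

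The 4 genes DE and higher in AT, DDI2 aside, were the 3 immunoproteasome subunits and PSMD5. PSMB8, which replaces PSMB5, was at 16 to 35.1 CPM in AT and 2.48 to 6.97 in SM, with no overlap (2.36 ± 0.24, adjusted p = 4.53e-11). PSMB9 and PSMB10 were at 8.10 to 18.4 and 11.7 to 26.6 CPM in AT, against 2.57 to 5.48 and 4.38 to 7.51 CPM in SM, with log2 fold changes of 1.77 and 1.66. Neither overlapped between the tissues. PSMD5 is an assembly chaperone of the cap that is no part of the finished particle. It was at 15.2 to 25.5 CPM in AT and 8.30 to 17.7 in SM (0.60 ± 0.14, adjusted p = 0.00016). The chaperones PSMD9 and PSMD10, the core chaperone PSMG3 and the activator subunits PSME1, PSME2 and PSME3 did not pass the test.

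**Figure D1:**
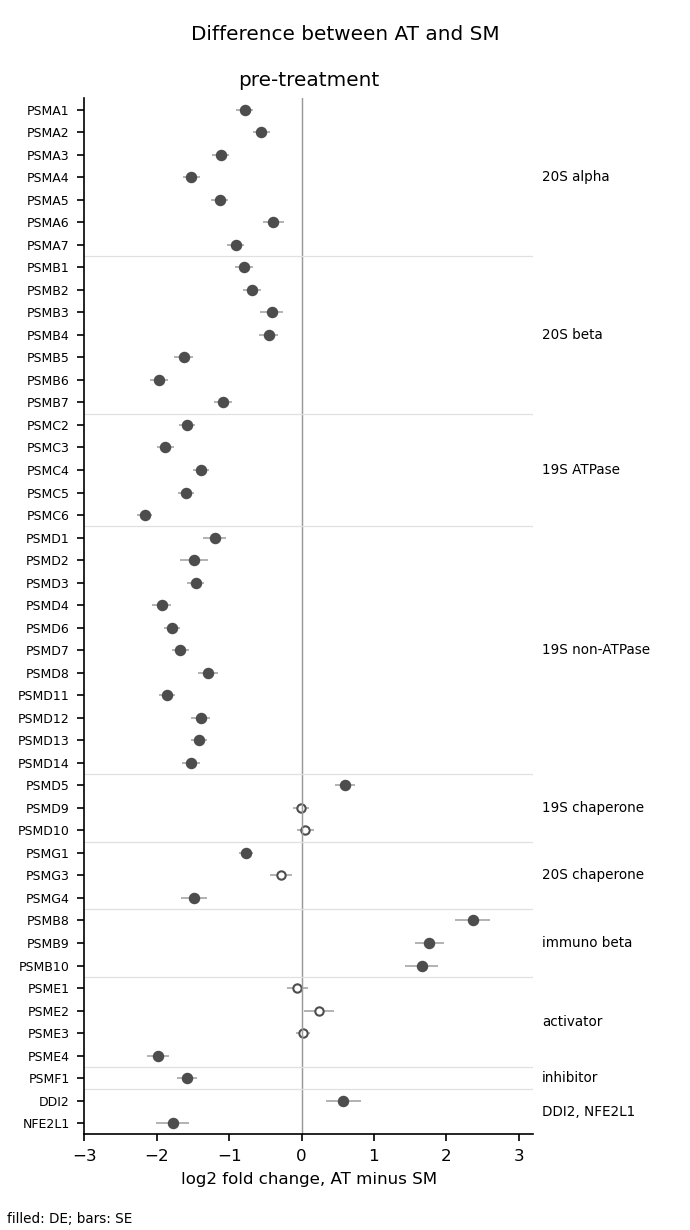
Log2 fold change of AT against SM before treatment for the 46 genes tested, grouped by role. Points are estimates of edgeR's fit with bars of 1 SE, and filled points are DE. The 30 standard subunits of core and cap lie below 0, and PSMB8, PSMB9 and PSMB10 lie above it, between 1.66 and 2.36. DDI2 is filled, but its difference is a description.

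DDI2 had opposite courses in the tissues after treatment stopped. In SM it was at 1.81 to 3.19 CPM pre-treatment (median 2.16), 0.982 to 5.14 post-treatment (median 2.97) and 8.25 to 16.2 at washout (median 10.4). Every washout library lay above every earlier one, and each of the 6 and 7 animals with a pair was higher at washout. The fitted log2 fold changes were 2.32 ± 0.29 against pre-treatment and 1.97 ± 0.27 against post-treatment, which is the pattern DDI2 was chosen for. Within the last identifier series, DDI2 was at 1.94 to 2.27 CPM in 2 pre-treatment libraries, 0.982 to 2.84 in 3 post-treatment and 8.25 to 16.2 in 6 washout libraries. Within that series the washout range lay above both earlier ones.

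In AT, which was not used in choosing it, DDI2 fell at washout. It was at 3.62 to 8.10 CPM pre-treatment (median 5.98), 3.3 to 9.53 post-treatment (median 6.73) and 1.26 to 5.24 at washout (median 1.56). Of the 8 washout libraries, 7 lay between 1.26 and 1.80 CPM and below every earlier library. The exception, at 5.24 CPM, came from animal 26292, whose pre-treatment and post-treatment libraries were the highest of their groups (8.10 and 9.53 CPM), and it was the only AT library of the first identifier series. All 8 animals were lower at washout than at either earlier time point, with log2 fold changes of -1.88 ± 0.21 against post-treatment (adjusted p = 6.33e-06) and -1.65 ± 0.21 against pre-treatment (adjusted p = 1.45e-05). Both were DE in all 21 alternatives, with a highest adjusted p of 0.000648 and 0.000144. Post-treatment, DDI2 did not pass the test in AT (0.22 ± 0.18, adjusted p = 0.396) or in SM (0.34 ± 0.29, adjusted p = 1.0; 0.59 without the 3 post-treatment libraries low in muscle genes).

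The change in DDI2 from pre-treatment to washout, SM minus AT, came to 4.06 on the log2 scale, which is also a description. DDI2 overlaps RSC1A1, a gene without introns, in the RefSeq annotation of the T2T-MMU8v2.0 assembly, and how the authors' counting treated such reads is not given in the sources used here. RSC1A1 also fell in AT, from 4.26 to 7.66 CPM pre-treatment to 2.32 to 4.54 at washout (-1.07, adjusted p = 1.17e-05). In SM it was at 3.59 to 11 CPM pre-treatment and 7.89 to 20.4 at washout, with a log2 fold change of 0.88 (adjusted p = 0.209). Reads of these genes may have been split between them, and DDI2 levels are uncertain to that extent.

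NFE2L1, the substrate of DDI2, did not pass the test at any time point in either tissue. In AT it was at 466 to 670 CPM pre-treatment (median 621), 316 to 581 post-treatment (median 485) and 370 to 575 at washout (median 497). Levels were lower post-treatment in 8 of 9 animals, but the groups overlapped (-0.36 ± 0.12, adjusted p = 0.0542). In SM it was at 579 to 1730 CPM pre-treatment (median 1140), 461 to 1540 post-treatment (median 1130) and 1300 to 1660 at washout (median 1490), with log2 fold changes at washout of 0.29 ± 0.32 against pre-treatment (adjusted p = 0.744) and 0.46 ± 0.30 against post-treatment (adjusted p = 0.449). Without the 3 post-treatment libraries low in muscle genes, the latter was 0.04. These values moved with the identifier series. Pre-treatment, 3 libraries of the first series were at 1320 to 1730 CPM and 2 of the last at 579 to 906, and post-treatment, 5 of the first were at 933 to 1540 and 3 of the last at 461 to 524. The 6 washout libraries of the last series, at 1300 to 1560 CPM, lay above the earlier libraries of that series, and no washout library of SM belonged to the first. The part of the identifier series in the levels of NFE2L1 was not tested.

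**Figure D2:**
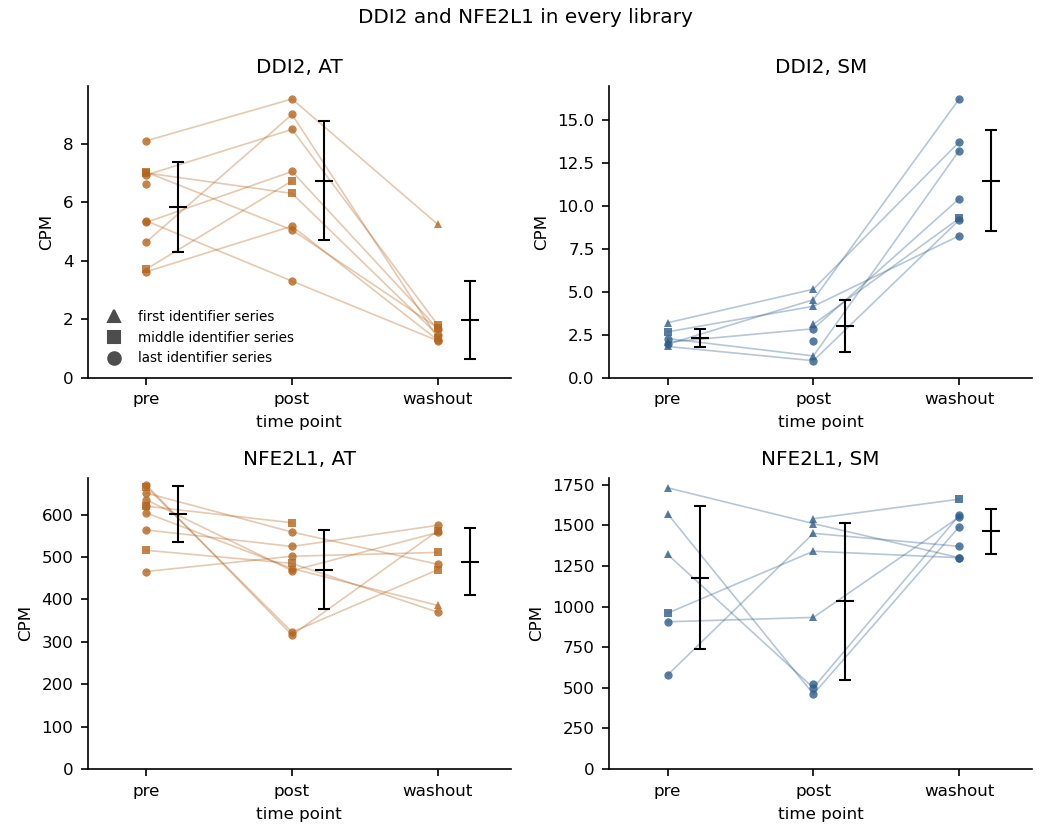
CPM of DDI2 and NFE2L1 in each library of AT and SM by time point, with lines joining the libraries of an animal, marker shapes for the identifier series, and the mean ± SD in black. At washout DDI2 lies at 8.25 to 16.2 CPM in SM and at 1.26 to 5.24 CPM in AT.

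Over the 21 SM libraries, the genes whose log2 CPM followed DDI2 most closely among 12588 compared were LRP6, a Wnt co-receptor (Pearson r 0.951), BTBD7 (0.94), PYGO1 (0.936), CACNA2D1, a calcium channel subunit (0.935), and PHF20L1 (0.927). These libraries share animals and time points. DDI2 was chosen for its washout level among them, so this order of genes is a description. NFE2L1 stood at rank 1000 with an r of 0.593, and the other members lay between -0.748 and 0.697.

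In AT, PSMB8 of the immunoproteasome and PSME1 of its activator rose post-treatment, while PSMD1 and PSMD2 of the 19S cap fell. Of the 46 genes, 2 were DE and higher, PSMB8 and PSME1, and 2 were DE and lower, PSMD1 and PSMD2. Over all 13367 genes the shares were 6.98% and 8.49%, so that neither count stood out. At an unadjusted p under 0.05, 3 members were higher, against 18.3% of all genes, and 14 lower, against 16%. The fitted values were lower for 35 of 46, with a median log2 fold change of -0.13 beside 0.03 over all genes. Without animal 20275 or without animal 22130, 1 member was DE, and without 20456 or without 22130, 7 in place of 14 were lower at an unadjusted p under 0.05.

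PSMB8 was at 20.4 to 45.3 CPM pre-treatment (median 35) and 36.5 to 54.2 post-treatment (median 43.4). The groups overlapped, but 8 of 9 animals were higher post-treatment, with a log2 fold change of 0.44 ± 0.13 (adjusted p = 0.0273). Within the last identifier series, 7 libraries of each time point were at 20.4 to 45.3 and 37.3 to 54.2 CPM. PSMB8 was DE in 14 of 21 alternatives, with an adjusted p of up to 0.0852 without animal 22130. PSME1, a subunit of the interferon-induced 11S cap that opens the core, was at 47.1 to 97.7 CPM pre-treatment (median 84.7) and 86.5 to 129 post-treatment (median 101). All 9 animals were higher post-treatment, with a log2 fold change of 0.39 ± 0.11 (adjusted p = 0.0235, up to 0.0736 without the paired term for animal). Its partner PSME2 did not pass the test (0.14, adjusted p = 0.444).

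PSMB9 was at 10.2 to 23.8 CPM pre-treatment and 11.5 to 30.5 post-treatment (0.25 ± 0.13, adjusted p = 0.163), and PSMB10 at 14.7 to 34.3 and 16.3 to 42.0 CPM (0.30 ± 0.18, adjusted p = 0.237). Both ranges overlapped almost entirely, although PSMB9 was higher in 7 and PSMB10 in 6 of 9 animals. The standard catalytic partners did not pass the test either, with log2 fold changes of -0.22 for PSMB5, the chymotrypsin-like subunit (adjusted p = 0.098), and -0.18 for PSMB6 (adjusted p = 0.175). The summed CPM of PSMB8, PSMB9 and PSMB10 came to 10.0% to 29.1% of that of PSMB5, PSMB6 and PSMB7 pre-treatment (median 18.8%) and to 16.8% to 36.1% post-treatment (median 26.6%). The ratio was higher post-treatment in 8 of 9 animals, by a mean of 0.50 ± 0.46 on the log2 scale (SD). It is made of chosen genes with no test and is not per length, so only its course between samples is read. In SM pre-treatment it was 0.952% to 2.08%.

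Markers of immune cells were also fitted higher in AT post-treatment. All 18 macrophage markers were fitted higher post-treatment and 7 of them were DE, and their summed CPM was 1090 to 4390 pre-treatment (median 2390), 1830 to 11000 post-treatment (median 4700) and 767 to 4630 at washout (median 1240). All 8 T cell markers tested were fitted higher post-treatment and 1 was DE. From post-treatment to washout, 3 T cell markers were fitted higher and 5 lower, with 1 and 2 of them DE. At washout against pre-treatment, all 18 macrophage markers were fitted lower and 7 were DE, against 7.96% of all genes. The median log2 fold change of the 3 immunoproteasome genes was -0.01 in that comparison. None of the 18 macrophage markers was at 0 in every library, and the part of immune cells in the levels of PSMB8 and PSME1 was not tested.

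PSMD1, the scaffold subunit of the cap, was at 170 to 244 CPM in AT pre-treatment (median 207), 123 to 188 post-treatment (median 163) and 141 to 186 at washout (median 154). Every later library lay below the pre-treatment median, 8 of 9 animals were lower post-treatment, and the log2 fold change was -0.37 ± 0.08 (adjusted p = 0.00758), DE in all 21 alternatives. PSMD2, the other large scaffold subunit, was at 297 to 416 CPM pre-treatment and 236 to 353 post-treatment. All 9 animals were lower post-treatment (-0.32 ± 0.09, adjusted p = 0.0221), with an adjusted p of up to 0.0802 without animal 22130.

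No other gene of the cap and none of the core passed the test. Of the 16 genes of the 19S cap, PSMD1 and PSMD2 included, 15 were fitted lower (median -0.17), 6 of them at an unadjusted p under 0.05, where 16% of all genes were lower. Of 14 genes of the 20S core, 12 were fitted lower (median -0.16), again 6 at an unadjusted p under 0.05, among them 5 of the 7 beta subunits. PSMC6 and PSMA7 were fitted higher, at 0.14 and 0.16. The summed CPM of the cap was 1755 to 2207 pre-treatment and 1436 to 1818 post-treatment, lower in 8 of 9 animals (mean log2 change -0.198 ± 0.166, SD). The groups overlapped only between 1755 and 1818 CPM. That of the core was 1349 to 2137 and 1239 to 1728 CPM, with 6 of 9 animals lower.

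**Figure D3:**
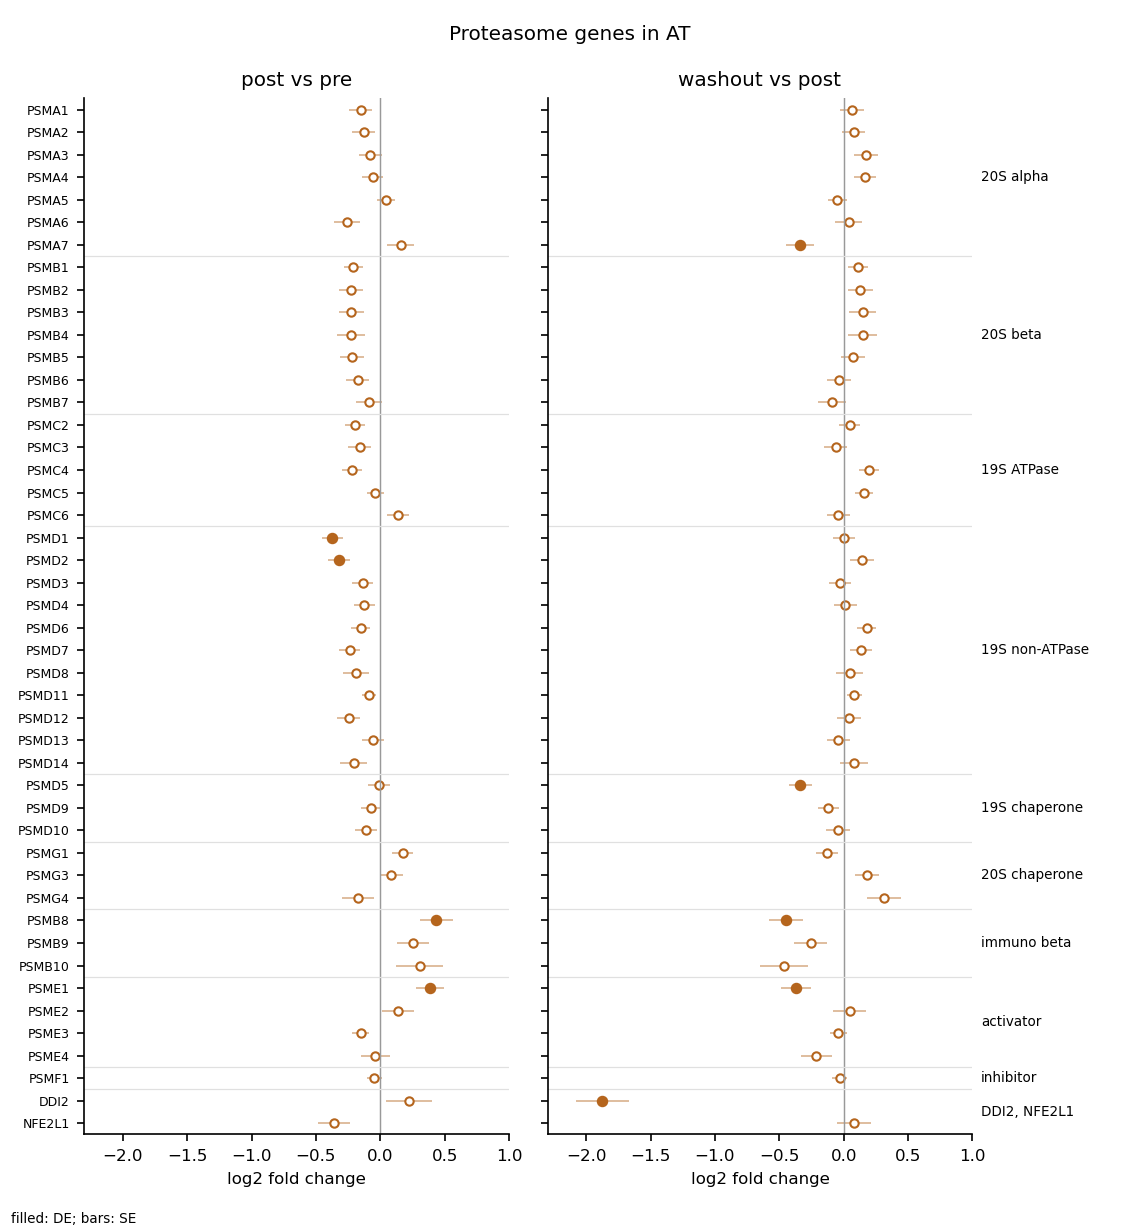
Log2 fold changes of the 46 genes in AT, post-treatment against pre-treatment and washout against post-treatment, grouped by role. Points are estimates of edgeR's fit with bars of 1 SE, and filled points are DE. PSMB8 and PSME1 lie at 0.44 and 0.39 in the first comparison and at -0.45 and -0.37 in the second, and DDI2 at -1.88 in the second is farthest from 0.

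From post-treatment to washout in AT, PSMB8 and PSME1 fell back. In all, 5 members were DE and lower, among them DDI2, and 0 were DE and higher, against 17.8% and 17.6% of all genes by edgeR's test. DDI2 aside, DESeq2 gave 5 lower and 1 higher and voomWithQualityWeights of limma 3 and 0. At an unadjusted p under 0.05, edgeR's test gave 6 lower and 4 higher, against 23.8% and 23.0%. Without animal 26292, 4 members were DE and higher and 9 were higher at an unadjusted p under 0.05, and that count was 1 without 22130 and 2 without 20261, 21189, 21866 or 24849. PSMB8 was at 25.4 to 47.9 CPM (median 28.2), lower than post-treatment in 7 of 8 animals (-0.45 ± 0.13, adjusted p = 0.0119). PSME1 was at 59.7 to 124 CPM (median 72.9), lower in 6 of 8 animals (-0.37 ± 0.11, adjusted p = 0.0148). PSMB9 (-0.26, adjusted p = 0.13) and PSMB10 (-0.47, adjusted p = 0.0565) did not pass the test. The ratio of immune to standard catalytic subunits was 15.7% to 29.1% at washout, lower than post-treatment in 7 of 8 animals, and all 18 macrophage markers were DE and lower in this comparison.

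The other 2 were an alpha subunit and a chaperone. PSMA7 was at 96.4 to 160 CPM post-treatment and 75.2 to 135 at washout, lower in 7 of 8 animals (-0.34 ± 0.11, adjusted p = 0.0213, up to 0.0738 without animal 21189). PSMD5 had a median of 24.1 CPM post-treatment, with a highest library of 33.3, and was at 14.8 to 25.4 at washout (median 19.1), with overlapping groups. It was lower in 7 of 8 animals (-0.34 ± 0.09, adjusted p = 0.00705), and DE in all 21 alternatives. PSMD1 and PSMD2, which had fallen, did not rise by the test. Of the 16 genes of the cap, 12 were fitted higher than post-treatment, 3 at an unadjusted p under 0.05 (median 0.05).

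Compared with pre-treatment, 3 genes were DE and lower in AT at washout and 0 higher by edgeR's test, against 7.96% and 12.5% of all genes. DDI2 aside, DESeq2 gave 2 lower and 1 higher and voomWithQualityWeights 4 and 1. At an unadjusted p under 0.05, 10 were lower and 1 higher, against 15.7% and 18.3%. DDI2 aside, 9 were lower, and 5 without animal 20261, 22130, 23004 or 26292. The 3 were DDI2, PSMD1, which was lower in all 8 animals (-0.37 ± 0.08, adjusted p = 0.00324), and PSMD5, lower in 7 of 8 (-0.35 ± 0.09, adjusted p = 0.00887). NFE2L1 had a log2 fold change of -0.28 ± 0.13 (adjusted p = 0.136). The summed CPM of the 20S core, at 1418 to 1734, lay within the pre-treatment range.

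In SM, no member was DE post-treatment, nor was any of the 12617 genes tested (0.0%). At an unadjusted p under 0.05, 0 members passed edgeR's test, against 3.24% of all genes. DESeq2 also gave 0 DE and 0 at an unadjusted p under 0.05, and voomWithQualityWeights 0 DE and 1. The 2 with the smallest unadjusted p beside the always named genes were PSMD6 (-0.29, unadjusted p = 0.0626) and PSMD8 (-0.28, unadjusted p = 0.0793, and -0.10 without the 3 libraries low in muscle genes), both of the cap, each lower in 5 of 6 animals. The change post-treatment differed between the tissues for 0 members by edgeR's interaction test, with 1 at an unadjusted p under 0.05, for 0 by DESeq2, also with 1, and for 0 by voomWithQualityWeights, with 6. The background was 0.0487% of all genes DE and 10.6% at an unadjusted p under 0.05. PSMA2 and PSME3 were named by rule here, with differences of 0.25 and 0.20 (adjusted p = 0.618 and 0.624).

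At washout in SM, every gene of the 20S core was fitted lower than at both earlier time points, and none passed the adjusted test. DDI2 aside, 0 of 45 members were DE against pre-treatment by edgeR and by DESeq2 and 6, all lower, by voomWithQualityWeights, where 2.28% of all genes were DE and lower. By edgeR, the share of all genes that were DE was 0.0634% in the higher and 0.0% in the lower direction. At an unadjusted p under 0.05, 21 were lower and 1 higher, against 7.8% and 5.6% of all genes, and DESeq2 gave 14 lower and 2 higher. The 21 became 11 without animal 19832, and 7 without 20275 or without 22130. Against post-treatment, 0 were DE by edgeR, DESeq2 and voomWithQualityWeights, where 0.182% of all genes were DE and higher and 0.00793% lower. With an unadjusted p under 0.05, 17 were lower and 1 higher, against 9.17% and 8.12%, with 16 and 1 by DESeq2 and 9 and 1 by voomWithQualityWeights. The 17 became 8 without animal 21189 or 23004, 10 without 22130, and 6 without the 3 post-treatment libraries low in muscle genes, which also left 0 higher. Both comparisons share the washout libraries.

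The 14 genes of the core had log2 fold changes from -0.65 to -0.20 against pre-treatment (median -0.45, beside -0.05 over all genes), with 13 at an unadjusted p under 0.05 and a lowest adjusted p of 0.209. Against post-treatment they ran from -0.55 to -0.14 (median -0.38, beside -0.03), with 12 at an unadjusted p under 0.05 and a lowest adjusted p of 0.184. The count against pre-treatment was 8 without animal 19832, 5 without 20275, 4 without 22130 and 8 without 23004, and the count against post-treatment was 7 without 22130 and 6 without 23004. Without the 3 post-treatment libraries that were low in muscle genes, it was 2 against post-treatment (median -0.24) and 11 against pre-treatment (median -0.40). With the identifier series as a covariate, 9 of the 14 were DE and lower against pre-treatment, where 5.07% of all genes were, and 10 against post-treatment, where 9.57% were. Over 19 alternatives, all 14 were fitted lower against pre-treatment, and 13 or 14 against post-treatment.

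Summed over the core, the CPM was 1379 to 2429 pre-treatment (median 2049), 1485 to 2086 post-treatment (median 1824) and 1120 to 1655 at washout (median 1485). The washout libraries overlapped the lower end of the earlier groups. The sum was lower at washout in 7 of 7 animals against post-treatment, by a mean log2 change of -0.349 ± 0.202 (SD), and in 5 of 6 against pre-treatment (-0.422 ± 0.359). Within the last identifier series it was 1960 to 2429 in 2 pre-treatment, 1651 to 1955 in 3 post-treatment and 1120 to 1655 in 6 washout libraries, and only post-treatment and washout overlapped, between 1651 and 1655.

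Among single core genes, structural beta subunits had the fold changes farthest from 0 against pre-treatment. PSMB3 was at 33.1 to 85.8 CPM pre-treatment, 37.6 to 84.9 post-treatment and 25.6 to 36.6 at washout, so that washout and post-treatment did not overlap. Its log2 fold changes were -0.65 ± 0.21 against pre-treatment (adjusted p = 0.24) and -0.55 ± 0.19 against post-treatment (adjusted p = 0.188), the latter -0.27 without the 3 post-treatment libraries low in muscle genes. PSMB1 was at 91.8 to 229, 109 to 154 and 72.7 to 114 CPM, lower at washout in all 6 and 7 animals (-0.59 ± 0.17 against pre-treatment, adjusted p = 0.222). PSMB2 (-0.58 ± 0.16, adjusted p = 0.209) was at 50.0 to 98.0, 55.8 to 85.0 and 35.5 to 56.5 CPM. Of the alpha subunits, PSMA2 was at 117 to 165 CPM post-treatment and 81.7 to 122 at washout, lower in all 7 animals (-0.42 ± 0.15, adjusted p = 0.184, and -0.26 without those 3 libraries). The catalytic subunits had smaller values, with log2 fold changes against pre-treatment of -0.20 for PSMB5 (adjusted p = 0.611), -0.36 for PSMB6 (adjusted p = 0.348) and -0.37 for PSMB7, the trypsin-like subunit (adjusted p = 0.319).

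The cap differed from the core in its counts. Of its 16 genes, 13 were fitted lower than pre-treatment and 3 of them at an unadjusted p under 0.05 (median -0.26), and against post-treatment 13 were fitted lower and 1 at an unadjusted p under 0.05 (median -0.12). The summed CPM of the cap was 2742 to 3952 pre-treatment, 2070 to 3935 post-treatment and 2313 to 3181 at washout, all overlapping. Whether core and cap differed was not tested. The core chaperones PSMG1, PSMG3 and PSMG4 were all 3 fitted lower than pre-treatment (median -0.42).

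Of the alternative caps and catalytic subunits, PSME4 was at 183 to 267 CPM pre-treatment (median 237), 134 to 324 post-treatment (median 228) and 206 to 425 at washout (median 334). All 6 animals with a pair were higher at washout than pre-treatment, but the groups overlapped and the test was not passed (0.42 ± 0.19, adjusted p = 0.35). PSMB10 was at 3.27 to 5.73 CPM pre-treatment and 1.78 to 3.12 at washout, which did not overlap, with a log2 fold change of -0.58 ± 0.26 (adjusted p = 0.357). PSME2 was at 14.7 to 36.0 and 11.1 to 22 CPM (-0.61 ± 0.28, adjusted p = 0.366). Muscle markers summed to 103000 to 139000 CPM pre-treatment and 128000 to 202000 at washout, and erythroid markers, of which 2 of 4 were at 0, to 8.18 to 127 and 63.1 to 1630. Their part in these values was not tested.

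**Figure D4:**
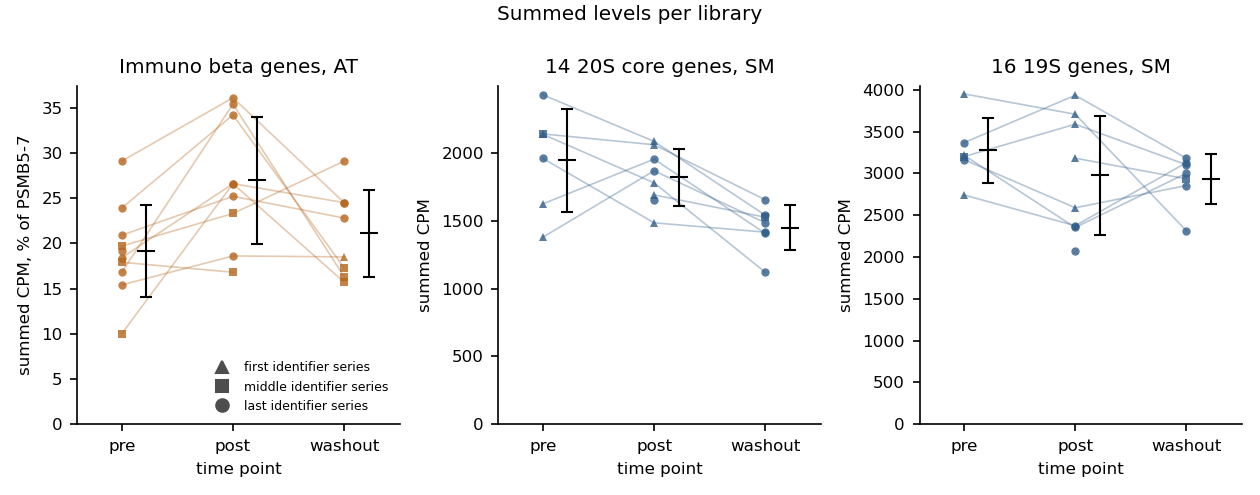
Summed CPM by time point in each library: PSMB8, PSMB9 and PSMB10 as a percent of PSMB5, PSMB6 and PSMB7 in AT, and the 14 genes of the 20S core and 16 of the 19S cap in SM. The AT ratio has a median of 18.8%, 26.6% and 20.65% pre-treatment, post-treatment and at washout, and the core sum in SM is lowest at washout, at 1120 to 1655 CPM.

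The change from pre-treatment to washout differed between the tissues for 5 members besides DDI2 by edgeR's interaction test. The signed difference, SM minus AT, was above 0 for 3 and below 0 for 2, against 8.38% and 9.13% of all 12322 genes. The count was 1 without animal 19832, 2 without 20275 or 23004, and 3 without 20261, 21866 or 26292. PSMD5 was at 5.98 to 12.9 CPM in SM pre-treatment and 8.93 to 18.0 at washout, where it had fallen in AT. The 18.0 CPM came from animal 20456, which had no SM pre-treatment counts and was at 17.6 CPM post-treatment. The other 6 washout libraries were at 8.93 to 15.2 CPM. For PSMD5 the difference in change was 0.69 ± 0.16 (adjusted p = 0.00208), DE in all 18 alternatives. PSME4 differed by 0.74 ± 0.22 (adjusted p = 0.0157), with 82.4 to 125 CPM in AT pre-treatment and 61.4 to 135 at washout. PSMD1 differed by 0.62 ± 0.22 (adjusted p = 0.0422), with 192 to 354 CPM in SM pre-treatment and 242 to 362 at washout. In SM, none of the 3 passed the test on its own.

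The difference was below 0 for a chaperone and an alpha subunit of the core. PSMG3 was at 8.05 to 13.0 CPM in SM pre-treatment and 5.29 to 9.20 at washout, and had medians of 14.6 and 17.7 CPM in AT, with a difference in change of -0.64 ± 0.20 (adjusted p = 0.0268). PSMA4 had a median of 169 CPM in SM pre-treatment and 108 at washout (-0.48 ± 0.17, adjusted p = 0.0482), and was DE in 8 of 18 alternatives, as was PSMD1. Of the 14 core genes, 13 had a fitted difference below 0, 7 of them at an unadjusted p under 0.05 (median -0.34), where 15.5% of all genes were. Over the 45 members, DDI2 aside, 10 were below 0 at that p, 4 without animal 19832 or 20275 and 5 without 22130.

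**Figure D5:**
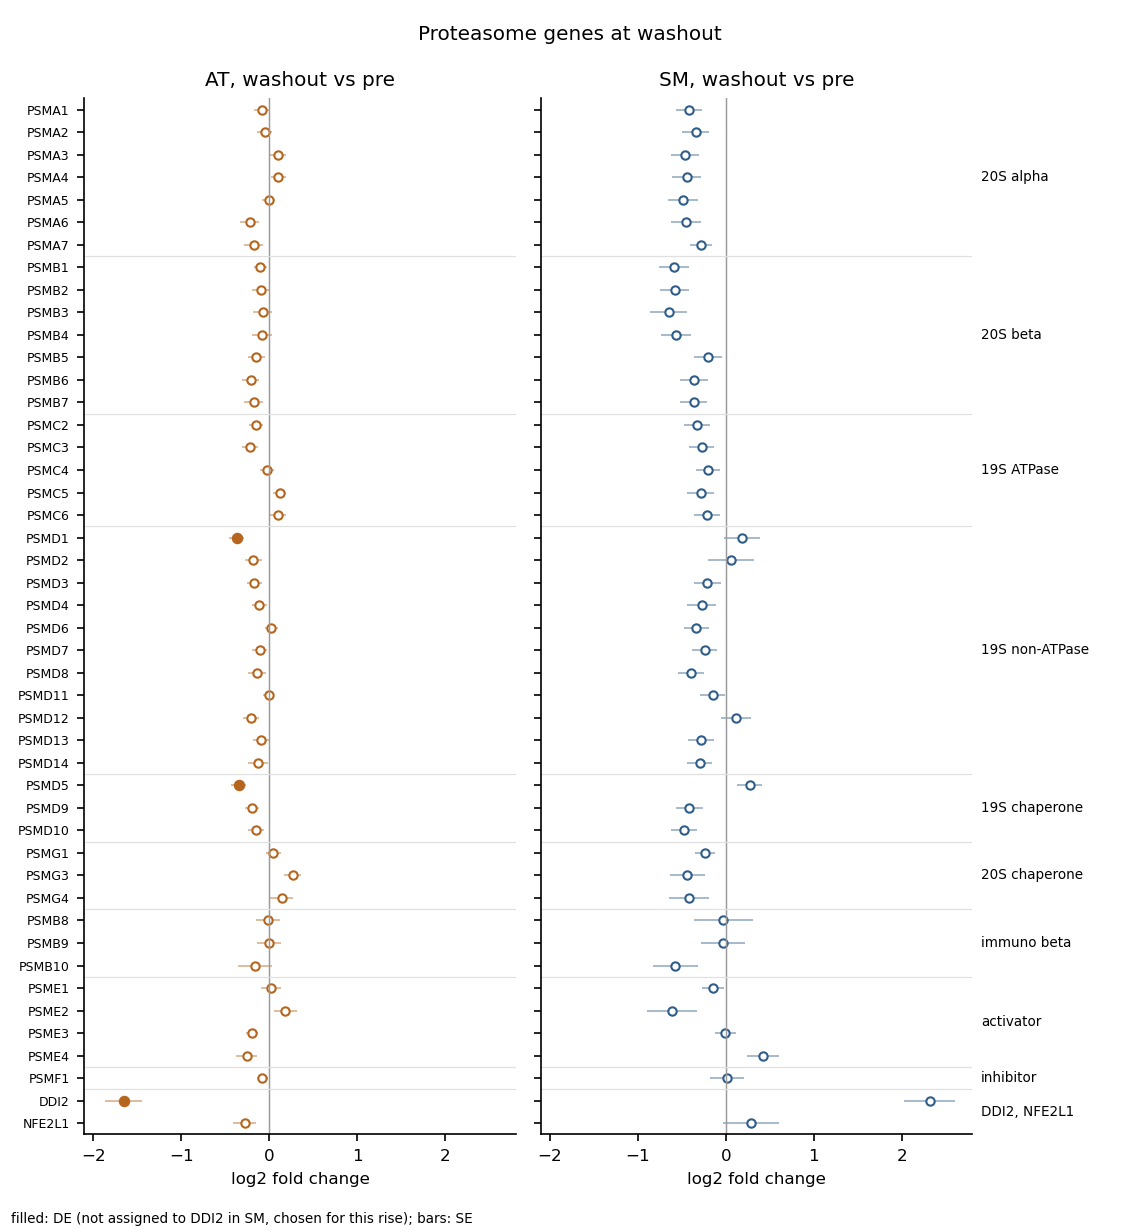
Log2 fold changes from pre-treatment to washout in AT and in SM, grouped by role. Points are estimates of edgeR's fit with bars of 1 SE, and filled points are DE; DDI2 in SM is unfilled because it was chosen for this rise. In SM all 14 genes of the 20S core lie between -0.65 and -0.20.

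Other genes of the same system were counted from lists. Of 12 further proteasome genes, 1 was DE and higher and 2 were DE and lower in AT post-treatment, against 6.98% and 8.49% of all genes. The higher one was the ubiquitin-binding ZFAND5 (0.28, adjusted p = 0.0244). Lower were USP14, a deubiquitinase of the cap (-0.34, adjusted p = 0.0201), and AKIRIN2, which carries proteasomes into the nucleus (-0.30, adjusted p = 0.0252). At washout against pre-treatment in AT, PAAF1, a chaperone of the cap, was higher (0.43, adjusted p = 0.000748) and UBE3C, a ubiquitin ligase, lower (-0.38, adjusted p = 0.000544). In SM 0 of the 12 were DE by edgeR in any comparison, where at most 0.182% of all genes were DE in 1 direction. Before treatment 10 of the 12 were DE and higher in SM, against 36.6% of all genes.

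Of 15 genes that process NFE2L1 or work beside it, 0 were DE and higher and 3 lower in AT at washout against pre-treatment, beside 12.5% and 7.96% of all genes. These were SEL1L (-0.59, adjusted p = 0.00334) and VCP (-0.31, adjusted p = 0.0128), which help to pull proteins out of the endoplasmic reticulum, and STT3B (-0.52, adjusted p = 0.00101), a subunit of the glycosylation enzyme. Of 15 ubiquitin genes and shuttle factors, 1 was DE and higher and 2 were DE and lower in AT post-treatment, beside 6.98% and 8.49% of all genes. RPS27A, which encodes ubiquitin fused to a ribosomal protein, rose (0.47, adjusted p = 0.0366). RAD23B (-0.46, adjusted p = 0.0146) and NPLOC4 (-0.43, adjusted p = 0.0106), which carry or extract tagged proteins, fell.

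Of 10 genes of antigen presentation, the process the immunoproteasome feeds, 0 were DE in AT post-treatment by edgeR, with IRF1, an interferon-induced transcription factor, at 0.31 (adjusted p = 0.0679) and B2M, the light chain of MHC class I, at 0.35 (adjusted p = 0.0787). From post-treatment to washout, TAP1, the peptide transporter whose gene overlaps PSMB9 in the RefSeq annotation, rose (0.33, adjusted p = 0.0142). Of 13 interferon-induced genes, 0 were DE and higher and 1 lower in AT post-treatment. Beside both lists, the post-treatment shares of all genes in AT were 6.98% higher and 8.49% lower.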

How the data were processed

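Paired reads of stranded, polyA-selected libraries had been aligned to MacaM by the authors, using STAR, and deposited as whole-number, unnormalized counts per gene for 48 of 51 labelled samples. The counting program and its strand setting are not given in the sources used here. The 3 SM samples without counts (pre-treatment of animals 20456 and 21866, washout of 21866) were not analysed here. Of 16103 entries, 70 repeats of a gene were dropped. Depth leaves few reads per library near 0.5 CPM, and elsewhere the spread between animals limits precision.

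Genes that reached 0.5 CPM in 10% or more of a tissue's libraries were tested with edgeR 4.0.16 (TMM, robust quasi-likelihood, two-sided, Benjamini-Hochberg over all genes of the fit) in R 4.3.3. The model held time point and animal, 1 fit per tissue, and tissue differences were fitted over both tissues. The fit was tested on simulated data. CPM were scaled by TMM, within a tissue or, for levels set between tissues, over both, and are not per length, so levels were not ranked between genes. The list of genes beside NFE2L1 was counted without RSC1A1, which overlaps DDI2. The members and lists were chosen with earlier results of these data known. Groups and animals came from the labels. The numbers in the labels are animals, which pairs the samples: libraries of 1 animal had a median r of 0.352 in AT (25 pairs) and 0.279 in SM (19), against -0.0354 and -0.0464 between animals.

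Named were DDI2, NFE2L1, the catalytic pairs, PSME1 and PSME2 and, per comparison, up to 5 genes with the largest and 5 with the smallest log2 fold change at an adjusted p under 0.05, or the 3 with the smallest p where fewer than 3 passed, and the genes with the highest and lowest mean CPM, all of which were already named. Fold changes of named genes under 0.1 in size that did not pass are not listed singly. Genes named for not differing between the tissues, RSC1A1, and values of PSMB1, PSMB3, PSMD1, PSMD5, PSME4 and PSMG3 outside the comparison that named them were chosen after their values were seen. Alternatives were voomWithQualityWeights of limma 3.58.1, DESeq2 1.42.0, library size alone, other filters, no animal term, the identifier series as covariate, 2 time points only, no fold limit and each animal left out. Added after the data were seen were edgeR's earlier method, voom without weights, and SM without 3 post-treatment libraries. Python 3.11.15, pandas 2.3.3, NumPy 2.4.6 and matplotlib 3.10.9 were used. A result of 1 list gene that the rule names is not reported here.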

Additional observations from a re-analysis of the deposited data

Results flagged for a closer look

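Among the named members, 13 of 162 groups of 4 to 10 libraries held a highest or lowest library farther from the rest than Dixon's limit, and 10 of 121 groups among the other members did. Chance gives about 1 in 20.

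In AT, DDI2 at washout was 5.24 CPM in animal 26292 (next 1.80), PSME4 at washout was 135 CPM in that animal (next 92.5), and PSMG3 was 11.7 CPM (next 16.7, the animal being lowest). PSMB1 and PSMB3 pre-treatment were 194 and 106 CPM in animal 20456 (next 151 and 80.9). PSME1 pre-treatment was 47.1 CPM in animal 20275, the lowest (next 71.0), and PSME4 post-treatment was 158 CPM in that animal (next 102). Without the pre-treatment AT library of animal 20275, 2 members in place of 4 were DE post-treatment.

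In SM, animal 22130 at washout was lowest for PSMB2 (35.5 CPM, next 48.2) and PSMB3 (25.6, next 32.0) and highest for PSMB8 (6.40, next 3.81). Animal 21189 post-treatment, one of the 3 libraries low in muscle genes, was highest for PSMB3 (84.9 CPM, next 49.3) and PSME2 (48.9, next 29.0). PSMB10 pre-treatment was 5.73 CPM in animal 19832 (next 3.89).

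The change from pre-treatment to washout, SM minus AT on the log2 scale, was 0.74 for PSME4, 0.69 for PSMD5, 0.62 for PSMD1, -0.64 for PSMG3 and -0.48 for PSMA4 by edgeR's interaction test. For DDI2 the difference was 4.06, a description, as it holds the rise in SM that DDI2 was chosen for.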

How the results depend on the processing

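Of 632 alternative values of the 33 named fold changes that met the DE limits, 564 kept direction and significance, 68 kept direction only, and 0 reversed. These counts include the washout values of DDI2 in SM, its difference between the tissues before treatment and its difference in change at washout. Those values are descriptions of the gene's choice, and their part in the counts is no test of it. In AT, 4 members were DE post-treatment, 1 to 6 with each animal left out, and 2 without the pre-treatment library of animal 20275. From post-treatment to washout 5 were DE, 2 with the identifier series as covariate, and 4 to 7 with each animal left out. Against pre-treatment 3 were DE, 6 with voomWithQualityWeights, 6 with the series, and 3 to 4 with each animal left out. In SM, DDI2 aside, 0 were DE in any comparison or with any animal left out, but 18 from post-treatment to washout with the series, where 2648 of 12617 genes were DE, and 12 against pre-treatment with the series (1353 of all genes) and 6 with voomWithQualityWeights (674). The difference in change at washout was DE for 5, for 12 with voomWithQualityWeights, 17 with library size alone, 17 with the series, and 1 to 7 with each animal left out. Before treatment 39 members besides DDI2 differed between tissues, 37 to 40 with each animal left out. The cause of these shifts was not tested.

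Fold changes that reversed were all ones that had not passed the test. For NFE2L1 in SM post-treatment they were 0.0961 with voomWithQualityWeights, -0.4591 to 0.1437 with each animal left out and 0.3571 without the 3 post-treatment libraries low in muscle genes. Without these 3, PSMB8 in SM post-treatment was -0.0510 and PSMB9 at washout against post-treatment 0.0178. With the series, PSMB5 at washout against post-treatment in SM was 0.0550. For the tissue difference in change post-treatment they were 0.0209 for PSMB8 and 0.0034 for PSMB9 with no replicate block, that is without the paired term for animal, and 0.0058 for PSMB9 with voomWithQualityWeights. With each animal left out they ran from -0.0104 to 0.3798 for DDI2, -0.0603 to 0.553 for NFE2L1, -0.2554 to 0.1155 for PSMB9 and -0.4687 to 0.0594 for PSME2.

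How much of the spread was counting error was not tested; it weighs most on genes of few CPM. With 6 to 7 pairs in SM, a p that missed the limit does not show that levels were alike.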

Other observations

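Proteasome genes are short. By the RefSeq annotation of T2T-MMU8v2.0, which gave a span for 93.7% of the genes tested in SM and for all 46 members, the median span was 12.3 kb for the members and 32.1 kb for all genes, and 37 members lay below the median of all genes. At washout against pre-treatment in SM, the median log2 fold change of all genes was -0.145 for the genes below that span and 0.058 for those above it, beside -0.287 and -0.147 for the 37 and 9 members. Against post-treatment it was -0.112 and 0.062 for all genes and -0.264 and -0.006 for the members. Of the 4 members with the longest spans, PSME4 (107 kb) and PSMD1 (122 kb) were fitted higher at washout against pre-treatment in SM, at 0.42 and 0.19, and PSMD14 (109 kb) and PSMB7 (63.2 kb) lower, at -0.30 and -0.37. NFE2L1 (13.1 kb) was fitted higher, at 0.29. The part of gene span in the levels of the core genes was not tested.

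In AT, the genes that followed DDI2 most closely over 27 libraries were MGAT5 (Pearson r 0.961), RC3H2 (0.955), MYO9A (0.948), GTF3C4 (0.948) and SLC39A10 (0.942), among 13334 compared. None of these 5 was among the first 5 in SM. RSC1A1, which overlaps DDI2, had an r of 0.925 in AT and 0.796 in SM.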
